A study of Homo sapiens with 8 samples.

Results

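The comparison described here is that of Pcif1-KO with WT cells after both had received an siRNA against PCF11 (siPCF11). It covers 8499 genes, all those with a siPCF11 ratio in either of the authors' 2 deposited tables, out of 8801 gene IDs listed for any siRNA. The cells were HEK293T, a human embryonic kidney line. Both groups were transfected with 5 pmol of siRNA and collected 48 h later, when nuclear RNA was taken for a library that reads each mRNA from its 3′ end. According to the series' design text, newly made RNA was marked with s4U, so the values are read as nascent RNA, although whether they count labelled RNA alone could not be checked. There was 1 Pcif1-KO and 1 WT library with siPCF11. A scrambled siRNA (siScram), also with 1 library per genotype, is used below as a second pair of libraries from the same lines. The labels name no separate clones, so the loss of PCIF1 cannot be told apart from any other difference between the lines. The treatment protocol, shared by these labels, also lists an siRNA against DIS3, which no label of these 4 libraries names.

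PCIF1 adds a methyl group to an adenosine that directly follows the mRNA cap and so makes m6Am. Transcripts that start with another base cannot carry this mark. PCF11 binds the tail of RNA polymerase II, takes part in cleavage and polyadenylation at the end of genes and helps to end transcription. When it is depleted in human cells, polymerases often read on past the ends of genes, and premature endings inside genes can become fewer.

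Each value is a log2 ratio of WT over Pcif1-KO as deposited, so a negative ratio is higher in Pcif1-KO cells and a positive ratio is higher in WT cells. The tables hold no counts, levels or errors, and the depth behind each ratio is unknown. With 1 library per group no test within siPCF11 was possible, and counts and medians over genes describe these libraries. PCIF1 itself is not analysed here, so its loss was not checked. PCF11 had a ratio of -0.45 with siPCF11 and -0.44 with siScram in the authors' deposited tables, and its siPCF11 ratio was -0.18 once the median of the other genes of chromosome 11 was taken off. Both libraries of a ratio received the same siRNA, so this says nothing about the knockdown. Of 29 markers of other lineages, 1 had a ratio, the myelin gene MBP at -0.79 per the authors' deposited tables. The kidney label itself cannot be checked against levels.

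The authors had split genes by length and by m6Am status. Long m6Am genes numbered 2134, long non-m6Am genes 3016, short m6Am genes 2070 and short non-m6Am genes 1279. Median RefSeq gene spans were 42.8 and 64.3 kb in the long classes and 9.85 and 9.99 kb in the short classes, in the order m6Am and non-m6Am.

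Most genes had ratios near 0 between Pcif1-KO and WT cells. In such bulk libraries fewer cells of a kind and less RNA per cell cannot be told apart. The siPCF11 ratios had a median of -0.010 over all 8499 genes, with a 95% interval over genes of -0.019 to 0.000030 and an SD of 0.39. Below 0, and thus higher in Pcif1-KO cells, were 51.1% of genes, and 48.9% were above 0. Beyond -1 or 1, which is a 2-fold difference, lay 56 genes (0.659%) and 71 genes (0.835%).

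Among the 4 classes, non-m6Am long genes sat lowest and m6Am short genes highest, but the classes overlapped almost fully. Long m6Am genes had a median of 0.015 (95% interval over genes -0.0044 to 0.037) and long non-m6Am genes one of -0.059 (-0.074 to -0.047). Short m6Am genes had a median of 0.039 (0.019 to 0.058) and short non-m6Am genes one of -0.013 (-0.033 to 0.016). The m6Am minus non-m6Am difference was 0.074 in long genes and 0.052 in short genes. Set beside the SD of 0.36 to 0.43 within the classes, these differences were small. With siScram they were 0.032 in long and 0.0035 in short genes, and 0.026 and -0.016 after window centring.

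The class differences were smaller within chromosome regions. Once each siPCF11 ratio was centred on the other genes of its 10 Mb window, the m6Am minus non-m6Am difference was 0.037 in long and 0.030 in short genes. The long minus short difference was -0.024 in m6Am and -0.046 in non-m6Am genes with siPCF11 as deposited. It was -0.0036 and -0.011 after window centring, in the same order. With siScram the difference as deposited had the opposite sign, 0.049 in m6Am and 0.020 in non-m6Am genes. After window centring siScram gave 0.033 in m6Am and -0.0085 in non-m6Am genes, so the opposite sign in non-m6Am genes was not seen within regions. Whether the siRNAs differ was not tested.

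**Figure D1:**
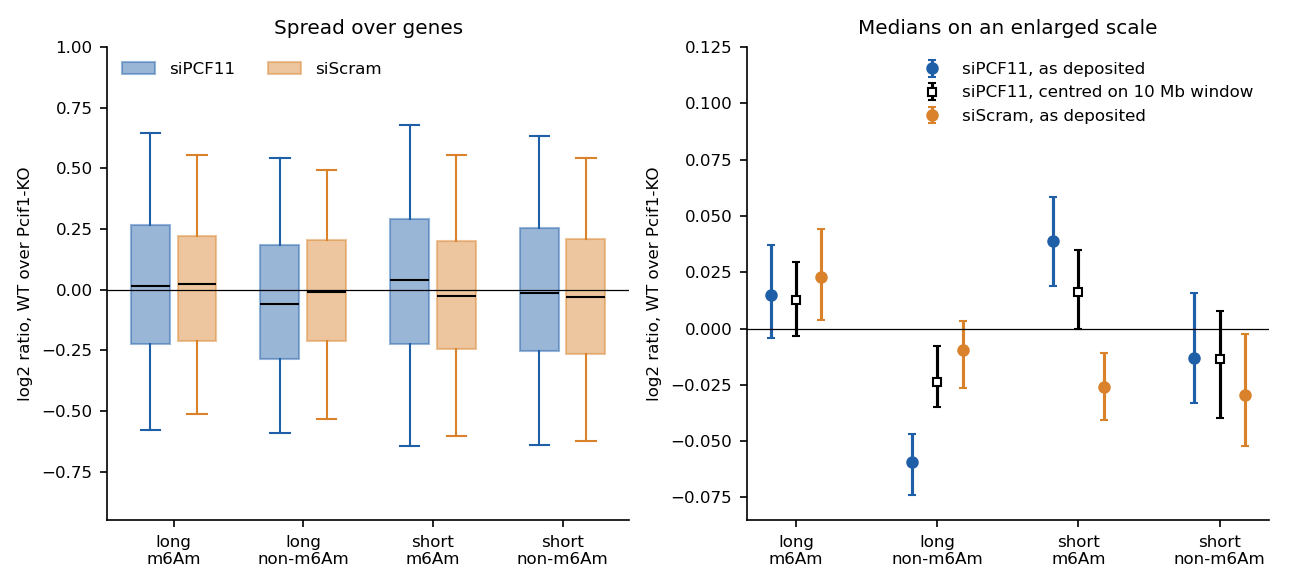
Log2 ratios of WT over Pcif1-KO by length and m6Am class. Left, boxes span the middle 50% of genes, whiskers the middle 90% and lines the median, for siPCF11 and siScram. Right, medians with 95% intervals over genes on an enlarged axis, with the siPCF11 values also centred on 10 Mb windows. Long non-m6Am genes have the lowest siPCF11 median, -0.059, and short m6Am genes the highest, 0.039.

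The listing itself differed between the classes. A siPCF11 ratio but no siScram ratio was found for 908 genes, and 302 genes were listed with siScram only. The siPCF11-only genes made up 20.3% of long non-m6Am genes but 7.08% of long m6Am, 2.17% of short m6Am and 7.82% of short non-m6Am genes. Their median was -0.040 and their SD 0.31. Only LCP1, which bundles actin, was below -1, at -1.09 per the authors' deposited tables. Only ISG15, an interferon-induced ubiquitin-like protein, was above 1, at 1.22 per the authors' deposited tables. The rule for listing a gene is unknown.

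The first base of each gene was read from RefSeq promoters on GRCh38.p14, which were found for 7085 of the 8499 genes (83.4%). Annotated starts need not be the ones used in these cells. An annotated A start was more frequent in m6Am genes, 1776 of 3573 or 49.7% (95% exact binomial interval 48.1 to 51.4), than in non-m6Am genes, 1386 of 3512 or 39.5% (37.8 to 41.1). Over every promoter of the table it was 44.3%. The m6Am class therefore also holds many genes whose annotated start is another base. A C just before an A start, the usual initiator step in human promoters, was present in 37.2% of m6Am and 29.2% of non-m6Am genes.

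Within the m6Am class the medians of genes with an A and with a G start had overlapping intervals. The siPCF11 median was 0.018 for the 1776 m6Am genes that start with A (95% interval over genes 0.00028 to 0.038) and 0.035 for the 1392 that start with G (0.0052 to 0.065). Non-m6Am genes had medians of -0.054 for A (-0.077 to -0.031) and -0.028 for G (-0.054 to -0.0029). With either start base m6Am genes had the higher median.

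The sequences below are those of the lowest and highest gene of each class among the genes with a promoter entry, shown because they are at the ends of the scale. Each gives 20 bases before and 10 from the annotated start, 5′ to 3′ on GRCh38.p14, and the capital marks the first transcribed base.
PCDH7, long m6Am, chr4:30720349-30720378, plus strand: gaggctgcaatctcctccctGaatcgcgca
ANKRD10, long m6Am, chr13:110915060-110915089, minus strand: ccccgccccgccccctctgtGcgcgctccg
EPN1, long non-m6Am, chr19:55675206-55675235, plus strand: ttccggtccgtcgcctccttCtgttgcttc
FAM20C, long non-m6Am, chr7:192551-192580, plus strand: cgcccgggacgcggggcgccGagaggctcg
CITED1, short m6Am, chrX:72307148-72307177, minus strand: gtgcccggcggcaaagctgcAgaaggggca
UNCX, short m6Am, chr7:1232852-1232881, plus strand: ggagcttgatgttgataagtAaagcgccgg
BEX1, short non-m6Am, chrX:103064162-103064191, minus strand: cagccttcggtgcagtcgtcActcgtgtct
SH3BP5L, short non-m6Am, chr1:248825906-248825935, minus strand: ggtctgcctggtcgtttttgGttggatcgg
The short m6Am pair CITED1 and UNCX begin with A and lie at opposite ends of the scale. PCDH7 and ANKRD10 are listed as m6Am genes although their annotated starts are G, and BEX1 is listed as non-m6Am although its annotated start is A.

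The medium neurofilament chain NEFM (ENSG00000104722.13, chromosome 8, 24913761 to 24919093) had the lowest ratio, -3.23 per the authors' deposited tables or 9.36-fold in favour of Pcif1-KO cells. CITED1, a transcriptional co-regulator (chromosome X, 72301646 to 72307157), was next at -2.98 per the authors' deposited tables, 7.88-fold higher in Pcif1-KO cells. For siScram the authors' deposited tables gave NEFM -2.71 and CITED1 -2.23. Both genes were thus higher in Pcif1-KO cells in each pair of libraries.

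Other short genes at this end were the secreted protease ADAMTS1, the cancer-testis antigen MAGEA1, the X-linked BEX1 and MAGEH1, and DEPP1, a gene induced by FOXO factors. Their siPCF11 ratios in the authors' deposited tables were -2.26 for ADAMTS1, -2.21 for MAGEA1, -2.15 for BEX1, -1.93 for DEPP1 and -1.86 for MAGEH1. With siScram the authors' deposited tables gave ADAMTS1 -0.74, MAGEA1 -1.75, BEX1 -1.17, DEPP1 -0.48 and MAGEH1 -1.74. The MAGE pair therefore had like ratios with both siRNAs, while ADAMTS1 and DEPP1 were further from 0 with siPCF11. HOXB6, the helix-loop-helix inhibitor ID4 and the stress-induced NUPR1 completed the short m6Am genes, at -1.52, -1.42 and -1.35 per the authors' deposited tables.

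Among long non-m6Am genes the homeobox factor BARX2 was lowest, at -1.80 per the authors' deposited tables, with 3.48-fold more in Pcif1-KO cells. The apoptotic protease CASP10 was at -1.69, the endocytic adaptor EPN1 at -1.49 and the lineage factor GATA3 at -1.46 per the authors' deposited tables. UBE2Q2, a ubiquitin-conjugating enzyme, was at -1.36 with siPCF11 but at 0.44 with siScram in the authors' deposited tables, so the 2 pairs of libraries had opposite signs. Among long m6Am genes the protocadherins PCDH7 and PCDH9, adhesion proteins of neurons, were lowest at -1.54 and -1.49 per the authors' deposited tables. The actin-binding LASP1, the nucleotide synthesis enzyme PRPS1 and GATA6 followed at -1.27, -1.24 and -1.14 per the authors' deposited tables. GATA6 was at -1.26 with siScram in the authors' deposited tables, so its ratio was alike in both pairs.

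At the WT side the highest ratio was that of PHLDA3 (chromosome 1, 201464278 to 201469188), a p53 target that restrains AKT, at 2.32 with siPCF11 and 1.398 with siScram in the authors' deposited tables. It was 4.98-fold lower in Pcif1-KO cells with siPCF11. The homeobox gene UNCX was at 2.13, LRATD2 at 2.11, the histone H4 gene H4C3 at 2.09 and CYBA, a subunit of the NADPH oxidase, at 1.72 per the authors' deposited tables. H4C3 belongs to a family of near-identical genes whose mRNAs mostly lack a poly(A) tail, and how reads that match several copies were counted is not given in the sources used here. Short non-m6Am genes were led by SH3BP5L at 1.85, the neuronal immediate early gene ARC at 1.43, the GTPase RAC3 at 1.34, FAM110A at 1.28 and the repressor BCL6B at 1.26 per the authors' deposited tables.

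Long genes reached lower values at this side. The Golgi kinase FAM20C was highest, at 1.98 per the authors' deposited tables, ahead of the organic anion transporter SLCO4A1 at 1.82. The surface proteoglycan SDC1 was at 1.56, ANKRD10 at 1.45, the large cadherin CELSR3 at 1.33, the palmitoyltransferase ZDHHC18 at 1.302 and the secreted SMOC1 at 1.296 per the authors' deposited tables. SNAPC4, a subunit of the complex that starts small nuclear RNA genes, was at 1.28, the ubiquitin ligase UBOX5 at 1.17 and CDCA7L at 1.15 per the authors' deposited tables. CELSR3 and ANKRD10 were at 0.20 and 0.38 with siScram in the authors' deposited tables, whereas CDCA7L was at 1.09 there.

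The genes beyond 2-fold differed in make-up from the whole. Of the 56 genes below -1, 32 (57.1%) were short and 21 (37.5%) were m6Am genes. Of the 71 genes above 1, 44 (62.0%) were short and 45 (63.4%) were m6Am genes. Over all 8499 genes 39.4% were short and 49.5% were m6Am. Short genes thus made up a larger share at both ends than over all genes, and m6Am genes at the WT end only.

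The siScram ratios, which come from separate libraries, mostly had the same sign. Of the 55 genes below -1 that siScram also listed, 52 were below 0 there, with a median of -0.63, and 14 were below -1. Over all genes listed with both siRNAs 50.8% were below 0 with siScram and 0.514% below -1. Of the 70 genes above 1 that siScram also listed, 64 were above 0 there, with a median of 0.58, and 14 were above 1. The matching shares over all genes were 49.2% and 0.408%. These genes were picked for extreme siPCF11 values, and 50 of the 55 and 66 of the 70 were closer to 0 with siScram.

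Over the 7591 genes listed with both siRNAs, Pearson's r between the siPCF11 and the siScram ratios was 0.43 and Spearman's rho 0.36. Genes are not independent replicates and share libraries and chromosome regions, so no p is given. The correlation was 0.39 in long m6Am, 0.36 in long non-m6Am, 0.51 in short m6Am and 0.50 in short non-m6Am genes. The SD was 0.40 with siPCF11 and 0.35 with siScram, and the difference of the 2 ratios had an SD of 0.40. The SD of the difference holds the scatter of both ratios, so it cannot be set directly beside the SD of 1 ratio. The pooled SD of a single ratio in the fit below was 0.28.

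**Figure D2:**
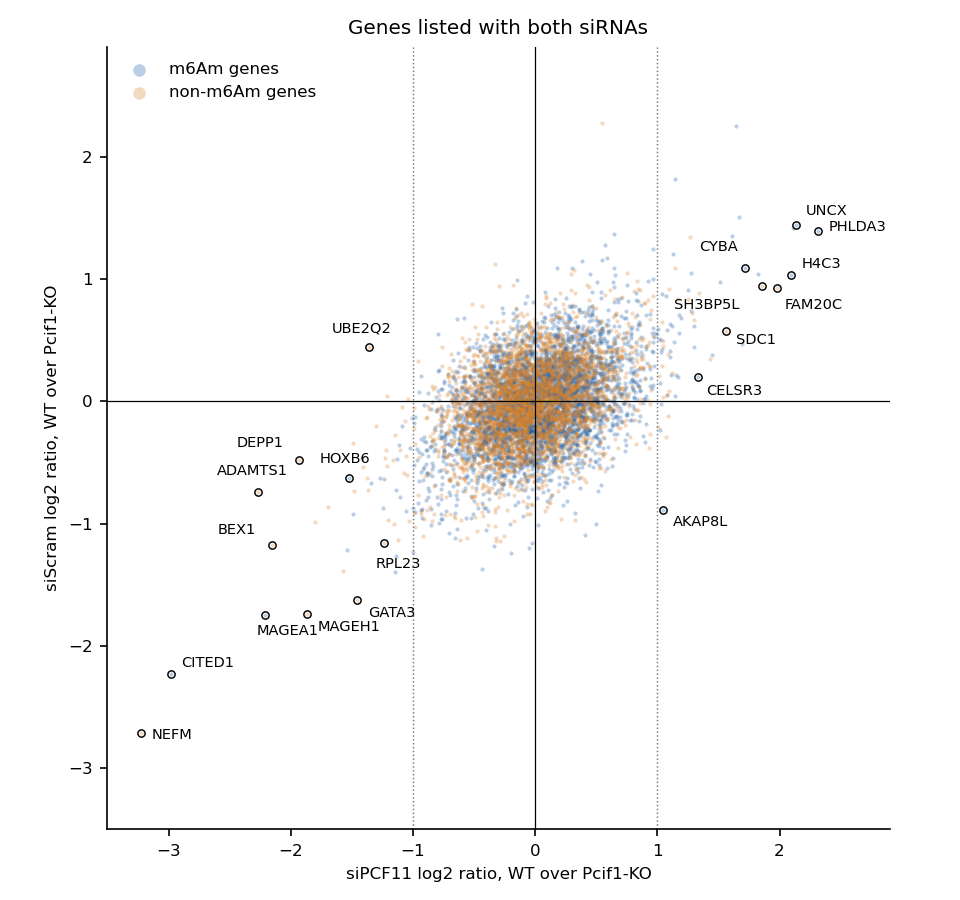
Log2 ratios of WT over Pcif1-KO for the 7591 genes listed with both siRNAs, siPCF11 on the horizontal and siScram on the vertical axis. Each point is a gene, coloured by m6Am class, circles mark the labelled genes, and dotted lines mark siPCF11 ratios of -1 and 1. NEFM and CITED1 lie at the lower left in both, while UBE2Q2 and AKAP8L lie in the quadrants of opposite sign.

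The only test that these values allow takes the siPCF11 and siScram ratios of a gene as 2 measurements of one genotype difference, so that real siRNA differences enter the pooled error. limma estimated 1 spread for all genes, so every gene had the same SE of 0.20 and its own disagreement between the siRNAs did not enter its p. ADAMTS1, at -2.26 and -0.74 per the authors' deposited tables, was called on that common SE (adjusted p = 3.1e-11). limma was fitted to all 7591 genes with Benjamini-Hochberg adjustment. It called 214 genes (2.82%) higher in Pcif1-KO cells and 203 genes (2.67%) higher in WT cells at an adjusted p under 0.05. Centred on 10 Mb windows, an alternative chosen after seeing the data, it called 127 (1.68%) higher in Pcif1-KO cells and 115 (1.52%) higher in WT cells. Genes whose call ended there are named below with that adjusted p. The window fit also differed in its error estimate. ADAMTS1 was at -2.42 with siPCF11 centred on its chromosome or on its window. Its adjusted p was 1.4e-14 and 2.5e-06 (limma), in that order. How far the centring and the error estimate each account for a lost call was not tested. NEFM had a mean log2 ratio of -2.97 (limma, adjusted p = 1.1e-45), CITED1 one of -2.60 (adjusted p = 5.3e-35) and PHLDA3 one of 1.86 (adjusted p = 2.2e-17). GATA3 had a mean of -1.54 (limma, adjusted p = 7.5e-12), and UBE2Q2, at -0.46, did not pass (adjusted p = 0.18). Of the genes beyond 2-fold with siPCF11, 50 of those below -1 and 58 of those above 1 were called. The test includes the siPCF11 value by which they were picked and is no independent check of them. p-values measure the spread between these libraries and do not reach to other clones.

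Genes of mRNA capping and methylation lay near the middle. Of 24 genes for cap synthesis and cap binding, 13 were below 0, with a median of -0.066 (95% interval over genes -0.23 to 0.34). ZC3H18, which links the cap-binding complex to RNA decay, was higher in WT cells at 0.93 with siPCF11 and 0.29 with siScram in the authors' deposited tables. It was the 1 gene of 23 tested that limma called higher in WT cells (adjusted p = 0.044, and 0.11 centred on windows), against 2.67% of all genes. Higher in Pcif1-KO cells 0 were called, against 2.82%. The cap methyltransferase RNMT was lowest, at -0.46 with siPCF11 but 0.41 with siScram in the authors' deposited tables. CMTR1, which methylates the ribose of the first base, was at -0.12 with siPCF11 and -0.63 with siScram in the authors' deposited tables. The m6A and m6Am list had a median of 0.14 (-0.10 to 0.23), with 14 of its 22 genes above 0. The cytoplasmic m6A reader YTHDF1 was highest at 0.96 per the authors' deposited tables and at 0.51 after window centring (limma over both pairs, adjusted p = 0.0067, and 0.44 centred on windows). FTO, a demethylase that acts on m6Am, was lowest at -0.37 with siPCF11 and at 0.41 with siScram in the authors' deposited tables.

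The 3′ end machinery, to which PCF11 belongs, lay on both sides of 0. Of 30 genes for cleavage and polyadenylation, 17 were below 0, with a median of -0.054 (95% interval over genes -0.33 to 0.16). The cleavage stimulation subunits CSTF2 and CSTF3 were at -1.01 and -0.95 per the authors' deposited tables, and the poly(A) polymerase PAPOLA at -0.81. With siScram the authors' deposited tables gave CSTF2 -0.14, CSTF3 0.08 and PAPOLA 0.03, so these low values were seen with siPCF11 and not with siScram. Relative to its window on chromosome X, CSTF2 was at -0.68 with siPCF11. The subunit CSTF1 lay on the WT side, at 0.18 with siPCF11 and 1.09 with siScram in the authors' deposited tables. limma called it higher in WT cells (adjusted p = 0.033, and 0.51 centred on windows). Whether the siRNAs differ there was not tested. CSTF2 fell short of the threshold over both pairs (limma, adjusted p = 0.066). SCAF1, a protein that binds the polymerase tail, was at -0.999 with siPCF11 and -0.88 with siScram in the authors' deposited tables, and limma called it higher in Pcif1-KO cells (adjusted p = 0.00026). RPRD1B, which also binds that tail, was highest at 0.76 with siPCF11 and 0.046 with siScram in the authors' deposited tables.

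Termination and nuclear decay genes split evenly, with 12 of 24 on each side of 0 and a median of -0.015. DIS3, an exosome nuclease, was lowest, at -0.97 with siPCF11 and -0.48 with siScram in the authors' deposited tables (limma, adjusted p = 0.0099, and 0.35 centred on windows). It lies in the lowest window of the genome with siPCF11, and relative to that window it was at -0.40. The exosome nuclease EXOSC10 was highest at 0.79 per the authors' deposited tables. The nuclear exonuclease XRN2, which follows the polymerase after cleavage, was at -0.42 per the authors' deposited tables and at -0.88 relative to its window on chromosome 20. Of 13 Integrator genes 7 were below 0, with a median of -0.033, and INTS15 stood apart at 1.03 per the authors' deposited tables (limma over both pairs, adjusted p = 0.010). The RNA polymerase II and elongation list had 23 of 40 genes below 0 and a median of -0.022, from the shared subunit POLR2L at -0.77 to the pausing factor subunit NELFB at 0.41 per the authors' deposited tables. POLR2L was called higher in Pcif1-KO cells (limma, adjusted p = 0.0010, and 0.084 centred on windows).

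Splicing and chromatin genes were also near 0 as lists. The core spliceosome had 22 of 35 genes above 0 and a median of 0.12 (95% interval over genes -0.043 to 0.26), with PRPF6 on chromosome 20 highest at 1.04 and SNRPD1 lowest at -0.71 per the authors' deposited tables. SR and hnRNP proteins had a median of 0.053, from SRSF1 at -0.70 to HNRNPR at 0.52 per the authors' deposited tables. Chromatin modifiers had a median of 0.036 over 76 genes, and the Polycomb subunit CBX2 was highest at 0.87 per the authors' deposited tables (limma over both pairs, adjusted p = 0.014). Core and linker histones had 8 of 15 genes above 0 and a median of 0.15. Nuclear pore and transport genes had a median of 0.022 with both ends called, the import receptor KPNB1 at -1.10 (limma, adjusted p = 0.00025) and its relative TNPO2 at 1.11 (adjusted p = 0.00090) in the authors' deposited tables.

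Most cytosolic ribosomal protein genes were on the Pcif1-KO side of 0. Below 0 were 58 of 82 genes, against 51.1% of all genes, with a median of -0.18 (95% interval over genes -0.31 to -0.12). The list's median was -0.20 after window centring and -0.31 with siScram, and 53 of the 81 genes listed with both siRNAs were below 0 in each. limma called 7 of the 81 higher in Pcif1-KO cells, against 2.82% of all genes, and 0 higher in WT cells, against 2.67%. Centred on windows, 5 and 0 were called. RPL23 was lowest, at -1.24 with siPCF11 and -1.16 with siScram in the authors' deposited tables (limma, adjusted p = 4.9e-07), followed by RPL36 at -0.96 and RPS13 at -0.93. At the other end RPS21, on chromosome 20, was at 0.52 per the authors' deposited tables and at 0.063 relative to its window. RPL35 was at 0.23 with siPCF11 and at -0.70 with siScram in the authors' deposited tables. Ribosomal protein genes have many processed pseudogenes, which may share their reads.

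These genes differ from the rest in how they start. Ribosomal protein mRNAs in vertebrates begin with a C followed by a run of pyrimidines, the terminal oligopyrimidine tract. An annotated C start was found in 48 of 66 ribosomal protein genes with a promoter entry, 72.7% (95% exact binomial interval 60.4 to 83.0), against 12.03% of all 7085 genes. A C followed by 4 letters that are each C or T was found in 65.2% of them, in 5.87% of all 7085 genes and in 4.04% of every promoter of the table. The starts of RPL36, RPS10 and RPS21, a low, a middle and the highest gene of the list, are shown with the first base in capitals and the tract running on after it.
RPL36, chr19:5690275-5690304, plus strand: gagttccgcgcggcgccagcCcttccgcca
RPS10, chr6:34426060-34426089, minus strand: cagcaccgcgcatgctccttCctttccagc
RPS21, chr20:62387083-62387112, plus strand: tgccgggtgactagctgcttCctttctctc
All 3 start with C and were listed as m6Am genes. Outside the ribosomal proteins, non-m6Am genes with such a start had a siPCF11 median of -0.090 over 219 genes (95% interval over genes -0.12 to -0.023). The other non-m6Am genes had one of -0.038 (-0.054 to -0.021), so the intervals overlapped. Their siScram medians were -0.0042 and -0.0044, so the difference was not seen there. In m6Am genes outside the ribosomal proteins the same start gave a median of -0.0095 over 154 genes, against 0.029 for other starts, and with siScram -0.0071 against 0.00076.

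Respiratory chain genes were on the same side. Below 0 were 50 of 75 genes, against 51.1% of all genes, with a median of -0.13 (95% interval over genes -0.27 to -0.042). limma called 9 of 75 higher in Pcif1-KO cells, against 2.82% of all genes, and 0 higher in WT cells, against 2.67%. Centred on windows, 4 and 0 were called, and COX7B and NDUFA1, named next, were no longer among them (adjusted p = 0.14 and 0.068). The ATP synthase subunit ATP5MG was lowest at -1.14 per the authors' deposited tables (limma, adjusted p = 0.00030), with the cytochrome oxidase subunit COX7B at -0.85 and the complex I subunit NDUFA1 at -0.77. NDUFS7 was highest at 0.53 with siPCF11 but at -0.16 with siScram in the authors' deposited tables. Mitochondrial ribosomal proteins did not lie with them. Their median was -0.019 over 71 genes, from MRPL2 at -0.99 to MRPS26 at 0.94 per the authors' deposited tables, and both ends were called by limma (adjusted p = 0.0062 and 0.0019). MRPS26, on chromosome 20, was not called centred on windows (limma, adjusted p = 0.15).

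Other genes of protein production were spread around 0. Translation factors had 34 of 55 genes below 0 and a median of -0.13 (95% interval over genes -0.23 to 0.045), from EIF4EBP1, which holds back the cap-binding EIF4E, at -0.77 to the ribosome biogenesis factor EIF6 at 0.80 per the authors' deposited tables. Aminoacyl-tRNA synthetases had a median of 0.036 with siPCF11 and -0.13 with siScram. Proteasome subunits had 21 of 33 genes below 0 and a median of -0.22 (-0.33 to 0.12), which was -0.075 after window centring. Within them PSMD14 was at -0.69 with siPCF11 and 0.38 with siScram in the authors' deposited tables. limma called 1 of the 33 higher in Pcif1-KO cells, against 2.82% of all genes, and 0 higher in WT cells, against 2.67%. That gene was the ATPase subunit PSMC3, at -0.66 with siPCF11 and -0.91 with siScram in the authors' deposited tables (limma, adjusted p = 0.0040, and 0.13 centred on windows).

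Genes of the unfolded protein response were mostly on the Pcif1-KO side, with 20 of 27 below 0 and a median of -0.27 (95% interval over genes -0.66 to -0.028). limma called 6 of the 27 higher in Pcif1-KO cells, against 2.82% of all genes, and 0 higher in WT cells, against 2.67%. Centred on windows, 5 and 0 were called, without PDIA4 (adjusted p = 0.11). The co-chaperone DNAJB9 was lowest at -1.38 with siPCF11 and -0.63 with siScram in the authors' deposited tables (limma, adjusted p = 6.8e-05). The lumenal chaperones HYOU1 at -1.14, PDIA4 at -0.76, HSP90B1 at -0.73 and HSPA5 at -0.70 lay with it in the authors' deposited tables. Of the sensors of this response, ERN1 was at -1.04 with siPCF11 and 0.017 with siScram, ATF6 at -0.65 and -0.31, and EIF2AK3 at -0.14 and -0.24, in the authors' deposited tables. XBP1, the factor whose mRNA ERN1 splices, was at -0.055 per the authors' deposited tables. PDIA3 was highest at 0.39 per the authors' deposited tables.

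The ATF4 amino acid response was divided with siPCF11 but mostly on the Pcif1-KO side with siScram. Of 26 genes 15 were below 0 with siPCF11, with a median of -0.12 (95% interval over genes -0.46 to 0.12). With siScram 20 were below 0, with a median of -0.19 (-0.28 to -0.088). limma called 4 of the 26 higher in Pcif1-KO cells, against 2.82% of all genes, and 0 higher in WT cells, against 2.67%. Centred on windows, 4 and 0 were called. NUPR1 at -1.35, the death-promoting factor DDIT3 at -0.89 and the secreted STC2 at -0.79 per the authors' deposited tables were called higher in Pcif1-KO cells (limma, adjusted p = 6.4e-05, 0.0078 and 0.018). CHAC1, at -0.33 with siPCF11 and -1.18 with siScram in the authors' deposited tables, was also among them (limma, adjusted p = 0.0060). ATF5, TRIB3 and CEBPB were at 0.68, 0.52 and 0.60 per the authors' deposited tables, and ATF4 itself was at 0.12. Hypoxia genes had 14 of 23 below 0 and a median of -0.23 (-0.36 to 0.22), led by the peptide hormone gene ADM at -1.57 per the authors' deposited tables (limma, adjusted p = 6.0e-11). VHL, which marks HIF factors for decay, was at 0.96 with siPCF11 and 0.14 with siScram in the authors' deposited tables. Cytosolic chaperones had a median of -0.038 over 39 genes.

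p53 targets had 14 of 24 genes above 0 and a median of 0.099 (95% interval over genes -0.12 to 0.35). PHLDA3 and the death-promoting BBC3, at 2.32 and 1.17 per the authors' deposited tables, were called higher in WT cells (limma, adjusted p = 2.2e-17 and 0.017, with BBC3 at 0.077 centred on windows), and PLK2 at -1.05 higher in Pcif1-KO cells (adjusted p = 0.0067). The cell cycle inhibitor CDKN1A was at 0.53 with siPCF11 and -0.36 with siScram in the authors' deposited tables. HEK293T cells carry the SV40 large T antigen, which binds p53. Interferon-stimulated genes had 8 listed members and a median of 0.26 (-0.45 to 1.22), with ISG15 highest. Immediate early genes had a median of 0.012 over 32 genes, and FOSB was at 1.08 with siPCF11 but -0.12 with siScram in the authors' deposited tables.

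Developmental genes held many of the extremes without a shared direction. HOX genes had 21 of 31 above 0 and a median of 0.22 (95% interval over genes -0.013 to 0.46). By cluster the medians were 0.11 for 9 HOXA genes, 0.47 for 9 HOXB genes, 0.28 for 7 HOXC genes and 0.015 for 6 HOXD genes. HOXB6 was at -1.52 per the authors' deposited tables and called higher in Pcif1-KO cells (limma, adjusted p = 1.2e-05). HOXA10 at 1.07, HOXC6 at 1.04, HOXB4 at 0.94 and HOXB3 at 0.87 per the authors' deposited tables were called higher in WT cells. HOXC6 and HOXB3 were not called centred on windows (limma, adjusted p = 0.062 and 0.087). With siPCF11 HOXB6 thus stood against its cluster, in which the 8 other listed genes were above 0. With siScram HOXB7 was also below 0, at -0.46 beside HOXB6 at -0.62 in the authors' deposited tables.

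Lineage factors outside the HOX clusters had 43 of 81 genes below 0 and a median of -0.076 (95% interval over genes -0.22 to 0.055). limma called 4 of them higher in Pcif1-KO cells, GATA3, GATA6, ISL1 and MEIS3, and 5 higher in WT cells, of 72 tested, against 2.82% and 2.67% of all genes. SOX12 at 1.69, NKX2-2 at 1.25 and SOX8 at 1.002 per the authors' deposited tables were among the 5, and SOX12 and NKX2-2 lie on chromosome 20. RUNX3 was at 0.55 with siPCF11 and 2.28 with siScram in the authors' deposited tables. In the axon guidance list SLIT2 at -0.93 and NTN1 at -0.91 per the authors' deposited tables were called higher in Pcif1-KO cells and the ephrin EFNB2, at 0.92, higher in WT cells (limma, adjusted p = 0.00044, 0.00026 and 0.00080). The list's median was -0.055 over 28 genes with siPCF11 and -0.30 with siScram.

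Among neuronal cytoskeleton genes NEFM was alone at its level. NEFL, the light neurofilament chain, which lies next to NEFM, was at -0.45 with siPCF11 and 0.077 with siScram in the authors' deposited tables, and INA at -0.12 and 0.31 in the same order. The list's median was 0.25, and 6 of its 10 genes were above 0. Besides NEFM limma called the tubulin TUBB2B higher in Pcif1-KO cells and STMN3 higher in WT cells (adjusted p = 0.0068 and 0.015, with STMN3 at 0.54 centred on windows). All 4 listed protocadherins were below 0, from PCDH7 at -1.54 to PCDH10 at -0.34 per the authors' deposited tables. In the MAGE family MAGEA1 and MAGEH1 stood apart from MAGEA6 at -0.41, MAGED2 at -0.28 and MAGEE1 at 0.26 per the authors' deposited tables. MAGEA1 and MAGEA6 are close in sequence.

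BEX and TCEAL genes, a group of small X-linked genes expressed in brain, had 8 of 9 below 0 and the lowest median of the 40 lists with at least 5 genes, -0.75 (95% interval over genes -0.91 to -0.17). BEX1 was at -2.15, BEX3 at -0.91, TCEAL9 at -0.88 and BEX5 at -0.83 per the authors' deposited tables, and limma called each higher in Pcif1-KO cells (adjusted p = 7.1e-14, 0.0095, 0.0081 and 0.0060). Centred on windows, BEX1 alone of the 9 was called, against 1.68% of all genes called higher in Pcif1-KO cells. BEX3, TCEAL9 and BEX5 were at adjusted p = 0.16, 0.15 and 0.13 there (limma). BEX4 was at 0.069 per the authors' deposited tables. All 9 genes are neighbours on chromosome X, where the window from 100 to 110 Mb had a median of -0.33, and the list's median was -0.42 after window centring. That window holds 34 genes, those of the list among them, so centring a gene also takes off values of its list mates. The part of the region in the list's median was not tested.

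Cell cycle and metabolic lists had medians near 0. DNA replication genes had 25 of 47 above 0 and a median of 0.042, with CDC6 at -0.92 called higher in Pcif1-KO cells and PCNA at 0.80 higher in WT cells (limma, adjusted p = 0.0080 and 0.013), from ratios in the authors' deposited tables. Of 44 tested, limma called 1 higher in Pcif1-KO cells, against 2.82% of all genes, and 4 higher in WT cells, against 2.67%. PCNA, MCM8 and GINS1, all called higher in WT cells, lie on chromosome 20. After window centring they were at 0.44, 0.39 and 0.31 and none was called (limma, adjusted p = 0.33, 0.46 and 0.34). The other gene called higher in WT cells was RPA2, at 0.51 with siPCF11 and 0.98 with siScram in the authors' deposited tables. Its adjusted p was 0.0075, and 0.21 centred on windows (limma). Mitosis genes had 33 of 58 below 0 and a median of -0.094, and repair genes a median of -0.047 over 30. Cholesterol synthesis had 14 of 21 above 0 and a median of 0.14, with HMGCS1, an early enzyme of the pathway, lowest at -0.99 with siPCF11 and -0.056 with siScram in the authors' deposited tables. Glycolysis and TCA cycle genes had a median of -0.026 over 34 genes. PGD, an enzyme of the pentose phosphate pathway, was highest of them at 1.08 per the authors' deposited tables (limma, adjusted p = 0.0017, and 0.14 centred on windows).

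Signalling, transport and zinc finger lists were also spread around 0. Wnt and Notch genes had a median of 0.081 over 40 genes, from the Wnt-restraining ligase RNF43 at -1.05 to the Notch target HES4 at 1.09 per the authors' deposited tables, both called by limma (adjusted p = 0.0020 and 0.0080, with HES4 at 0.32 centred on windows). TGF-beta and BMP genes had a median of -0.028 over 33 genes, with ID4 lowest. SLC transporters had 68 of 117 above 0 and a median of 0.071, from the anion exchanger SLC4A2 at -1.05 to the mitochondrial carrier SLC25A29 at 1.18 per the authors' deposited tables. Lysosome and autophagy genes had 33 of 53 below 0 and a median of -0.066, from ATG13 at -0.79 to LAMP1 at 0.97 per the authors' deposited tables. The ZNF zinc finger genes, 276 in all, had a median of -0.038, and ZNF672 was highest at 1.13 with siPCF11 and 1.21 with siScram in the authors' deposited tables.

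Of the 40 lists with at least 5 genes, 24 had a median below 0 and 16 one above it. The interval over genes lay wholly below 0 for 4 lists, the ribosomal proteins, the respiratory chain, the unfolded protein response and the BEX and TCEAL family, and for 0 lists wholly above it.

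**Figure D3:**
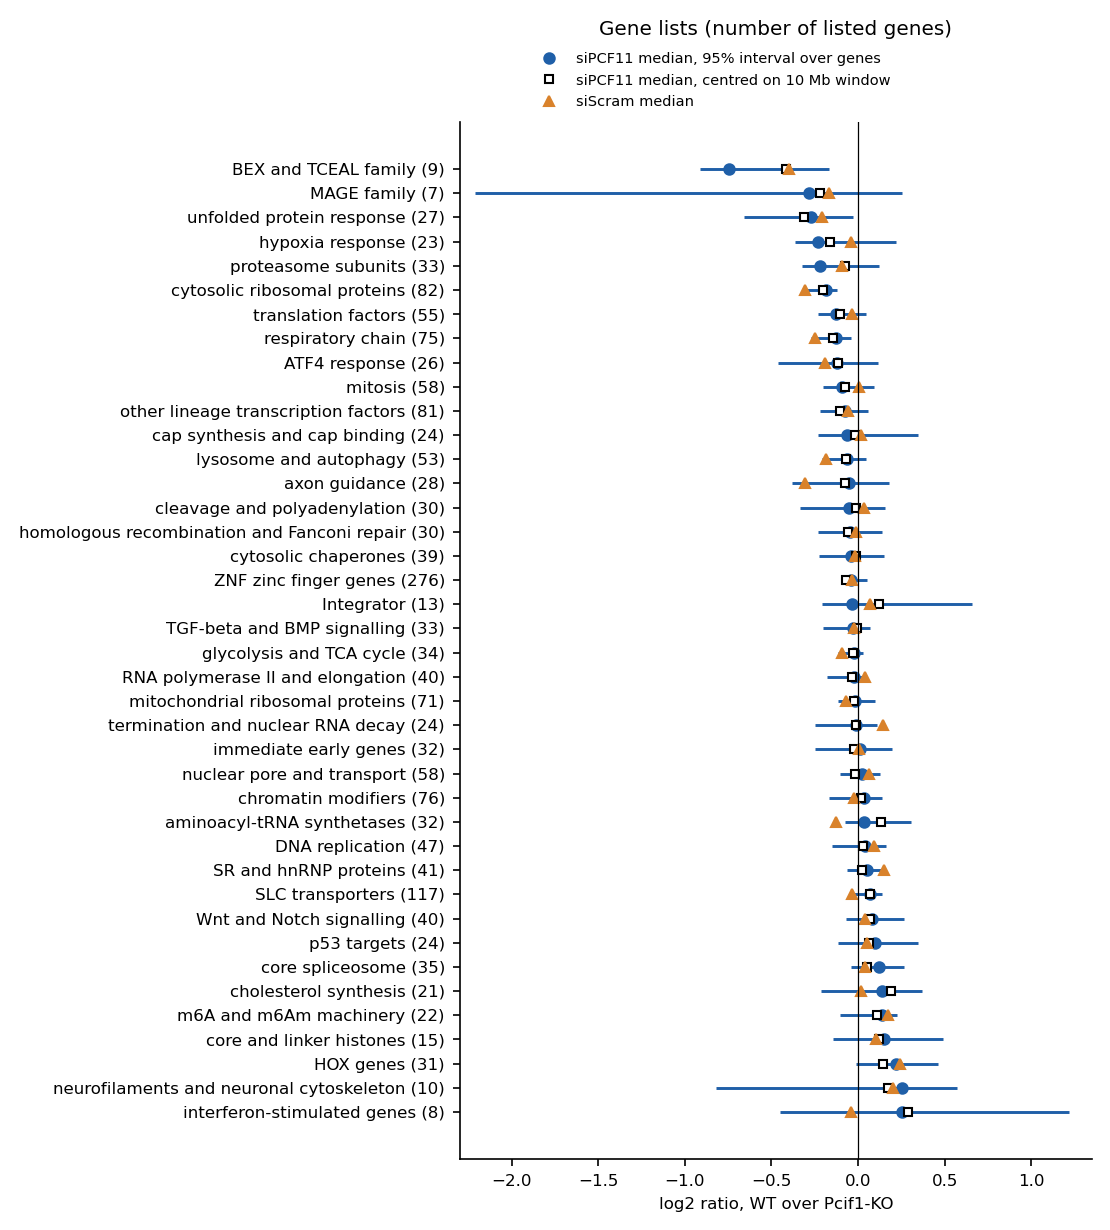
Medians of the log2 ratio (WT over Pcif1-KO) of the 40 gene lists with at least 5 listed genes, whose number is in brackets. Circles and bars are siPCF11 medians with 95% intervals over genes, squares the siPCF11 medians after centring on 10 Mb windows and triangles the siScram medians. The BEX and TCEAL family is lowest, at -0.75 as deposited and -0.42 after centring.

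Ratios differed by chromosome and by region. Chromosome 11 was lowest, with a siPCF11 median of -0.27 (95% interval over genes -0.31 to -0.24) and 23.5% of its 456 genes above 0. Chromosome 20 was highest, at 0.37 (0.31 to 0.41) with 85.5% of 249 genes above 0. With siScram chromosome 11 was at -0.29 and chromosome 20 at 0.31, so these medians were of like size in both pairs of libraries. Chromosome 11 held 8 of the 56 genes below -1 and 0 of the 71 above 1. Chromosome 20 held 0 of the genes below -1 and 11 of those above 1.

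Other chromosomes were nearer 0. Chromosomes 18, X and 6 had medians of -0.12, -0.12 and -0.10 with siPCF11, and chromosomes 21, 22, 19, 16 and 1 medians of 0.15, 0.14, 0.11, 0.085 and 0.061. Chromosome 19 was at 0.11 with siPCF11 and at -0.056 with siScram, and chromosome 22 at 0.14 and 0.027. Over the 23 chromosomes Pearson's r between siPCF11 and siScram medians was 0.81. On 20 of 23 chromosomes the m6Am median was above the non-m6Am median. Chromosome 19 had medians of 0.16 for m6Am and -0.0010 for non-m6Am genes.

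Within chromosomes the medians varied by region. Of 214 windows of 10 Mb with at least 15 genes, 31 had an interval wholly below 0 and 25 one wholly above it, and the window medians correlated with those of siScram with an r of 0.57. The lowest window was on chromosome 13 from 70 to 80 Mb, where 18 of 18 genes were below 0 and the median was -0.58 with siPCF11 and -0.15 with siScram. It holds DIS3. The highest was on chromosome 20 from 60 to 70 Mb, at 0.48 with siPCF11 and 0.42 with siScram, and holds SLCO4A1 and YTHDF1. The first 3 windows of chromosome 1 were at 0.44, 0.38 and 0.31. After window centring 36 of the 56 genes were still below -1 and 40 of the 71 still above 1.

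**Figure D4:**
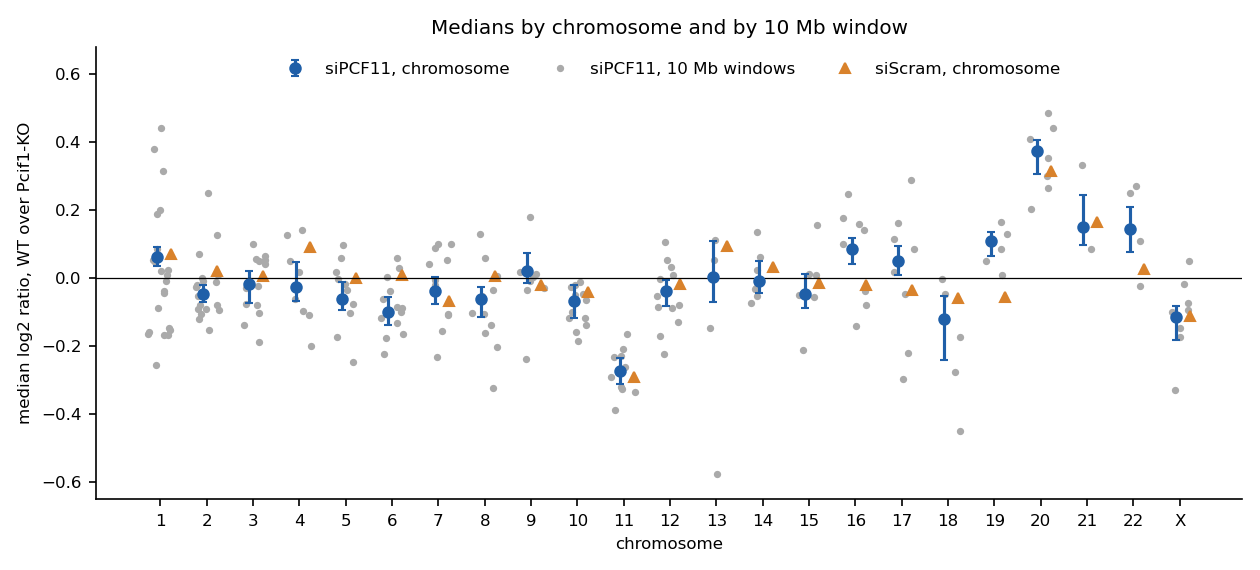
Median log2 ratio of WT over Pcif1-KO by chromosome. Circles with bars are siPCF11 medians with 95% intervals over genes, small points the medians of 10 Mb windows with siPCF11, spread sideways only for display, and triangles siScram medians. Chromosome 11 lies at -0.27 and chromosome 20 at 0.37, and 1 window of chromosome 13 at -0.58 stands below the rest.

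By gene span, m6Am genes had the higher siPCF11 median in 10 of 10 bins of equal size, by 0.0050 to 0.11. After window centring this held in 8 of 10 bins, and with siScram in 5 of 10. Neither class followed span steadily. m6Am medians were -0.0064 in the shortest genes, highest at 0.080 in genes of 22.4 to 30.5 kb and -0.047 in the longest. Non-m6Am medians stayed between -0.029 and 0.0031 up to 57.7 kb and reached -0.11 in genes over 140 kb.

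The ratios also differed with the G and C content of the promoter. From the lowest to the highest of 5 bins of about equal size, m6Am medians were -0.014, -0.0040, -0.0082, 0.074 and 0.10, and non-m6Am medians -0.091, -0.047, -0.037, -0.041 and -0.0099. In the highest bin the m6Am genes had a 95% interval over genes of 0.066 to 0.14, above that of the non-m6Am genes at -0.039 to 0.032. After window centring the m6Am median of that bin was 0.047, and with siScram it was -0.0016. Across the 7085 genes Spearman's rho between promoter G and C content and the siPCF11 ratio was 0.091, a weak relation that was 0.045 after window centring and 0.020 with siScram. Genes with such promoters share chromosome regions, and the part of either in the other was not tested.

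**Figure D5:**
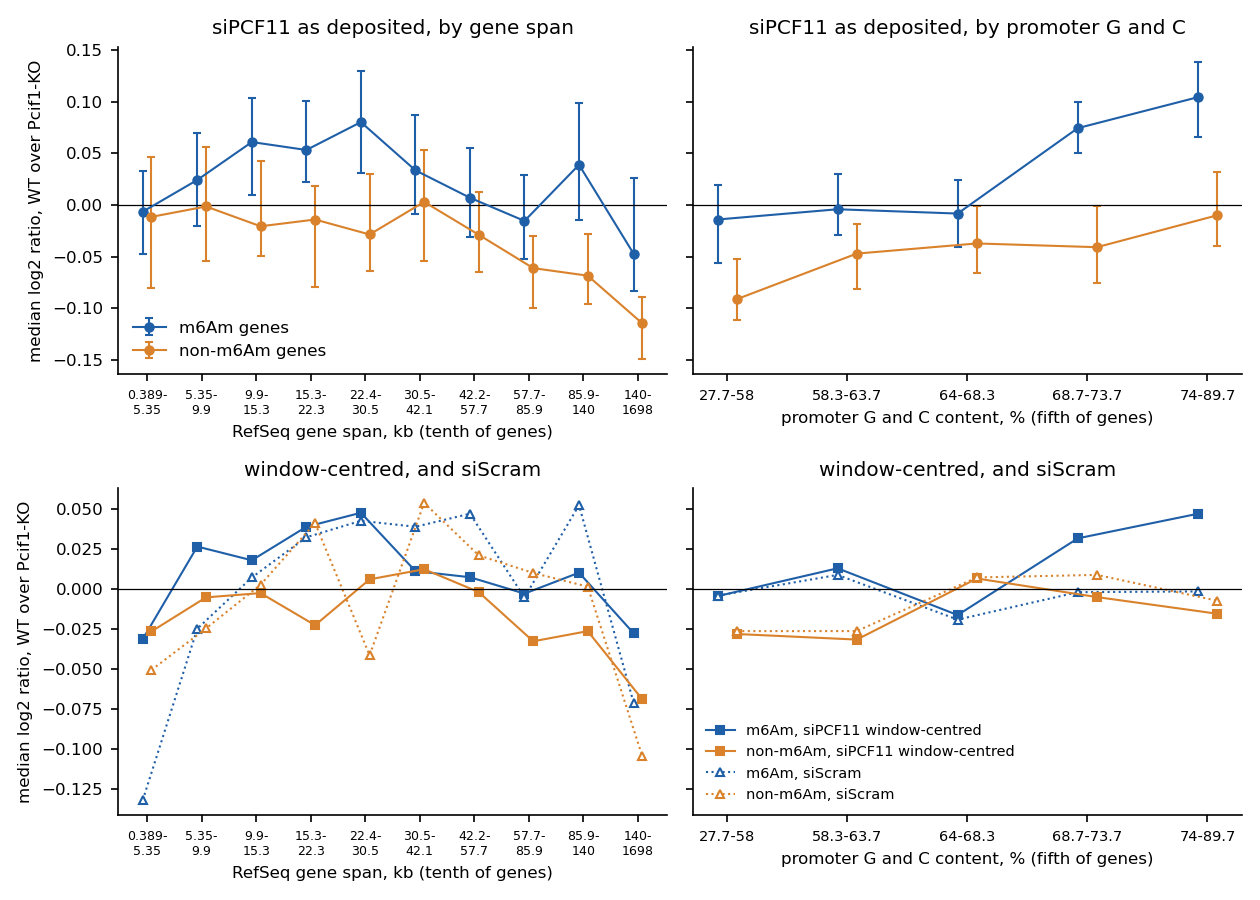
Medians of the log2 ratio (WT over Pcif1-KO) of m6Am and non-m6Am genes by RefSeq gene span, left, and by the G and C content of 300 bases around the start, right. The upper row shows siPCF11 ratios as deposited with 95% intervals over genes, the lower row siPCF11 medians after window centring and siScram medians. m6Am genes are higher in all 10 span bins with siPCF11, and reach 0.10 in the promoters with the most G and C.

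Genes with close neighbours on the same strand had slightly higher medians with siPCF11 and lower ones with siScram. With an upstream same-strand gene less than 5 kb away the median was 0.037 over 697 genes (95% interval over genes 0.010 to 0.066), and with none within 500 kb it was -0.076 over 995 genes (-0.10 to -0.054). For the next gene downstream the same bins had medians of 0.038 over 800 genes (-0.00051 to 0.059) and -0.067 over 992 genes (-0.094 to -0.038). After window centring the values were 0.021 and -0.026 upstream and 0.0082 and -0.014 downstream, in the order near and far. With siScram they were -0.015 and 0.011 upstream and -0.047 and 0.019 downstream, in that order. m6Am genes made up 58.8% of the upstream-near bin and 39.2% of the upstream-far bin. Median gene spans were 15.5 kb near and 44.1 kb far upstream, and 21.2 kb near and 47.7 kb far downstream. The part of m6Am status or span in the differences was not tested.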

How the data were processed

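Nuclear RNA of HEK293T cells was sequenced from the 3′ end with a QuantSeq REV kit, per the labels' protocols. The authors deposited log2 ratios of WT over Pcif1-KO per gene in 2 tables, for short and long genes, split by m6Am status, per the file headers. The submitters' processing notes name the genome build hg38 and, without their roles, DESeq2 1.30.1, HTSeq 2.0.1, STAR 2.7.10a, cutadapt 3.7 and bcl2fastq 2.20. Not given in the sources used here are the scaling, any shrinkage, the filter for listing, the length limit and the m6Am assignment. Of 8 libraries, 2 make the siPCF11 ratio and 4 both ratios, and the 4 rescue libraries were not analysed here. Depth is unknown, so no counting interval is given.

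Symbols were matched for 8491 and gene spans for 8474 of 8499 genes. RefSeq promoters (GRCh38.p14) hold 300 bases, 250 before and 50 from the annotated start. None is used for the 293 genes of chromosome 8. Medians carry 95% intervals from the binomial order statistics of the genes, which describe the spread over genes. Window centring subtracts the median of the other genes in the same 10 Mb window, or of the chromosome where a window held under 15 genes. limma 3.58.1 (R 4.3.3, moderated, two-sided) was fitted to the siPCF11 and siScram ratios of 7591 genes, with 1 residual degree of freedom per gene, 1 spread shared by all genes and Benjamini-Hochberg adjustment at 0.05. It was also run on simulated data, drawn independently with the same spread for every gene. Those data hold no regional or siRNA differences, so they cannot show whether the shared spread suits the real ratios. The pooled SD was 0.28, and 1343 genes had an unadjusted p under 0.05. The shared spread and this SD are those of the ratios as deposited. The fit to window-centred ratios had another error estimate, so its adjusted p-values differ in more than the centring. Other steps used Python 3.11.15, pandas 2.3.3, NumPy 2.4.6, SciPy 1.17.1 and matplotlib 3.10.9.

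The members and the 43 gene lists were chosen with earlier results of these data known. Named genes are PCF11 and DIS3, the 5 highest and 5 lowest of each class, and the highest, the lowest and the gene nearest the median of each list with at least 5 genes. Those named beyond this rule, mostly further list members, were chosen after their values were seen. Alternatives were centring on all genes, chromosomes or windows, means, another length limit, a threshold of 0.8 and other limma settings. limma on window-centred ratios, the restriction to outer gene edges and the further values for promoter G and C content and neighbours were added after seeing the data.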

Additional observations from a re-analysis of the deposited data

Results flagged for a closer look

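Opposite signs with the 2 siRNAs put 11 results here. Each rests on 1 library per group and the difference between the siRNAs was not tested. The long minus short difference of medians was -0.024 in m6Am genes with siPCF11 and 0.049 with siScram. In non-m6Am genes it was -0.046 with siPCF11 and 0.020 with siScram, but -0.011 and -0.0085 after window centring, where the signs were the same.

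Among genes below -1 with siPCF11, the authors' deposited tables gave the ubiquitin-conjugating enzyme UBE2Q2 -1.36 with siPCF11 and 0.44 with siScram. ZNF521, a zinc finger factor, was at -1.21 and 0.044 in the same order in the authors' deposited tables. ERN1, a sensor of the unfolded protein response, was at -1.04 and 0.017 there.

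Among genes above 1 with siPCF11, the authors' deposited tables gave FOSB 1.08 with siPCF11 and -0.12 with siScram, and TBC1D10A 1.07 and -0.29. AKAP8L was at 1.04 with siPCF11 and -0.89 with siScram in the authors' deposited tables. PTPRU was at 1.03 and -0.019, the Wnt ligand WNT5B at 1.02 and -0.24, and FBXW5 at 1.005 and -0.21, in the same order in the authors' deposited tables.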

How the results depend on the processing

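No paired analysis was possible because each genotype had 1 library per siRNA and the labels give no replicate numbers, beyond the pairing by siRNA that the ratios already hold. Leaving out a ratio would leave limma no residual degrees of freedom. Among alternative values for the main results, 283 stayed within the spread or factor set for them and 16 moved. The long non-m6Am median was -0.035 centred on chromosomes, -0.024 centred on windows and -0.045 as a mean. Window centring gave the short m6Am median as 0.016. The m6Am minus non-m6Am difference in long genes was 0.047 centred on chromosomes and 0.037 centred on windows. Long minus short was -0.0025 in m6Am genes split at a RefSeq span of 20 kb, and -0.011 in non-m6Am genes after window centring. Genes above 1 numbered 44 after window centring and 190 at a threshold of 0.8, and genes below -1 numbered 152 at that threshold. The ZNF list had a median of -0.072 after window centring. Values added after seeing the data put the m6Am median of the promoters richest in G and C at 0.047 after window centring and -0.0016 with siScram. The cause of these moves was not tested.

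limma called 167 genes higher in Pcif1-KO cells and 155 higher in WT cells after chromosome centring, 219 and 209 with robust variances and 217 and 208 after scaling. Centred on windows, added after seeing the data, it called 127 higher in Pcif1-KO cells and 115 higher in WT cells. That fit also differed in its error estimate. Of 73 named genes that limma called, 9 lost the call centred on chromosomes and 13 centred on windows. Of 60 named genes beyond 2-fold with siPCF11, 19 were within it under a centring, and 0 reversed. Unknown depth, 1 library per group and unnamed clones limit every value.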
